A study of Mus musculus with 60 samples.

Results

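The cytochromes P450 of the families Cyp1, Cyp2 and Cyp3 were described across 5 organs of Ftsj1-deficient and wildtype mice. Members were the entries of the poly-A tables whose symbol is Cyp1, Cyp2 or Cyp3 followed by a subfamily letter and a number, without the Cyp2c subfamily and without pseudogene symbols. This gave 44 genes of 55290 named entries: 2 of Cyp1a, 1 of Cyp1b, 4 of Cyp2a, 5 of Cyp2b, 9 of Cyp2d, 8 of Cyp2j, 7 of Cyp3a and 1 each of Cyp2e, Cyp2f, Cyp2g, Cyp2r, Cyp2s, Cyp2t, Cyp2u and Cyp2w. Left out by that choice were 15 Cyp2c entries and 20 pseudogene symbols.

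These enzymes sit in the endoplasmic reticulum, take electrons from NADPH cytochrome P450 reductase (Por) and insert an oxygen atom into drugs, pollutants, steroids, fatty acids or vitamins. Cyp1 genes are known targets of the aryl hydrocarbon receptor AHR, Cyp2b genes of the receptor CAR (Nr1i3) and Cyp3a genes of the receptor PXR (Nr1i2). In rodent liver several of them are expressed mainly in one sex, under the control of the growth hormone pulse pattern and STAT5.

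The study took whole brain, heart, kidney, liver and spleen from 6 male mice aged 4 months. Of these, 3 mice were Ftsj1-deficient (Ftsj1_DF) and 3 were wildtype (WT), with no special treatment and free access to food. Ftsj1 encodes an X-linked methyltransferase that adds methyl groups to ribose in the anticodon loop of tRNAs. The sources used here do not give the strain or the altered stretch of Ftsj1. The 6 mice were 2 brothers from one litter and 4 from another, and a single batch label covers every library. Of 60 libraries, the 30 poly-A libraries were used, 6 for each organ.

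The tables used hold 1 comparison per organ, Ftsj1-deficient minus wildtype with 3 mice against 3, and no value per library. A level below is the mean of the 6 libraries after DESeq2's scaling, expressed as a share of the organ's sum over all genes (1 ppm is 1 part of 1000000), and comparisons between genes are made per kb of exon. Exon length counts all annotated exons of a gene, so it can exceed that of a single transcript, and close ranks depend on the choice. Log2 fold changes are given with their standard error (SE), and a gene rose or fell when the authors' adjusted p was under 0.05. In the authors' deposited table Ftsj1 had log2 fold changes between -3.51 and -2.70 in the 5 organs, which correspond to 8.79% to 15.4% of the wildtype level, lower under the deficient label in every organ. Depth differed between libraries: the largest size factor was 2.14 times the smallest in spleen, 4.80 in liver, 6.46 in brain, 11.4 in heart and 18.0 in kidney. For most genes at or under a mean level of 100, the whole reads in each of the 6 libraries could be recovered from the digits of the deposited mean. Libraries are named A to F in each organ by falling size factor, and which mouse or genotype a letter stands for is not known.

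Members made up 18405 ppm of the summed level in liver and 4406 ppm in kidney, against 146 in spleen, 130 in brain and 88.6 in heart. The share was highest in liver for 26 members, in kidney for 9, in brain for 6 and in spleen for 1. No member had its highest share in heart, and Cyp2a22 and Cyp2d13 are listed at 0 in every organ. Together with Cyp2w1 these were the 3 members under a mean level of 10 in every organ, and 25 members reached 10 in at least 3 organs.

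**Figure D1:**
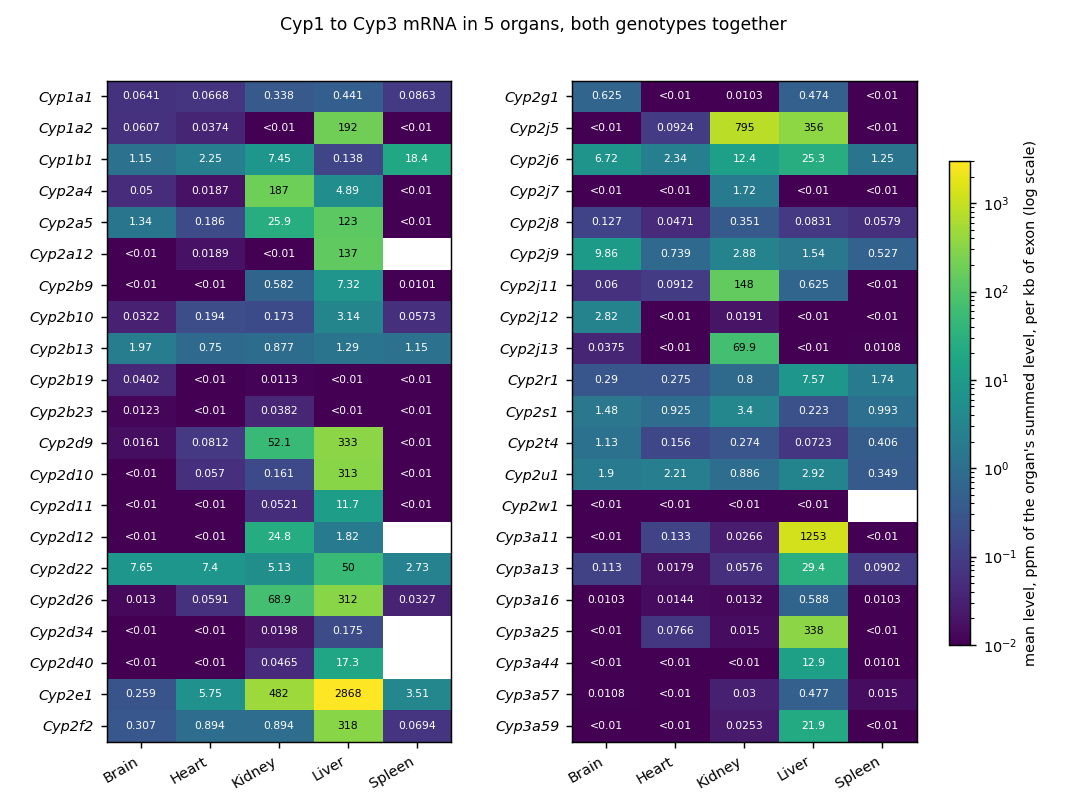
Level of each detected member in the 5 organs, as mean level in ppm of the organ's summed level and per kb of exon, on a log color scale with the value in each cell (values under 0.01 as such); white cells are listed at 0. Liver and kidney columns hold the high values, with Cyp2e1 at 2868 in liver and Cyp2j5 at 795 in kidney, and no brain, heart or spleen value exceeds the 18.4 of Cyp1b1 in spleen.

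In liver, Cyp2e1, which oxidises ethanol and acetone, had the highest level per kb with 2868 ppm per kb, followed by Cyp3a11, the main Cyp3a enzyme of mouse liver, with 1253. The arachidonic acid epoxygenase Cyp2j5 came next with 356 ppm per kb, and Cyp3a25, Cyp2d9, Cyp2f2, Cyp2d10 and Cyp2d26 lay between 312 and 338. Cyp2d9 has 2.658 kb of exon but a transcript of 1712 bases, whereas Cyp2j5 has 2.345 kb and 2345 bases. By transcript length Cyp2d9 would stand above Cyp2j5. Together, Cyp3a11, Cyp2e1 and Cyp2d9 held 73.1% of the members' summed level in liver, without correction for length. In kidney, Cyp2j5 led with 795 ppm per kb, ahead of Cyp2e1 with 482, Cyp2a4 with 187 and Cyp2j11 with 148. Cyp2j13 was almost a kidney gene: its share was 328 ppm in kidney and 0.0208 in liver. Cyp2a4, a testosterone hydroxylase, had a share 38.3 times higher in kidney than in liver, whereas its close relative Cyp2a5, a coumarin hydroxylase, had 254 ppm in liver and 53.7 in kidney.

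Outside liver and kidney, other members led. Brain was led per kb by Cyp2j9 (9.86 ppm per kb), Cyp2d22 (7.65) and Cyp2j6 (6.72). Heart was led by Cyp2d22 (7.40), Cyp2e1 (5.75) and Cyp2j6 (2.34). In spleen the oestrogen and retinoid oxidising enzyme Cyp1b1 alone held 73.3% of the members' summed level, at 107 ppm. A mean level of 10 or more in all 5 organs was found for 14 members, among them Cyp1a1, Cyp1b1, Cyp2b10, Cyp2b13, Cyp2d22, Cyp2e1, Cyp2f2, Cyp2j6, Cyp2j8 and Cyp2j9. The other 4 were Cyp2r1, which hydroxylates vitamin D in liver, the fatty acid hydroxylase Cyp2u1, and Cyp2s1 and Cyp2t4. Exons of Cyp2t4, Cyp2s1, Cyp2f2 and Cyp2u1 overlap those of Egln2, Gm26707, Gm15883 and 4930534D22Rik, in that order, on the opposite strand. Whether counting used the strand is not given, so some of their reads in any organ may belong to those genes.

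The promoters of 6 members are shown because each gene either passed the test in an organ (Cyp2a5, Cyp2d9, Cyp2d26 and Cyp2b10) or is a paralog of one that did (Cyp2a4 and Cyp2b9). Each runs 5′ to 3′ from 250 bases before to 50 bases after the RefSeq start, on GRCm38.p6, a build other than the one the authors used. The first pair, Cyp2a5 (chr7:26835089-26835388, plus strand) and Cyp2a4 (chr7:26306942-26307241, plus strand), was 97.7% identical over 301 aligned columns, and capitals mark the 5 aligned bases that differ.
Cyp2a5: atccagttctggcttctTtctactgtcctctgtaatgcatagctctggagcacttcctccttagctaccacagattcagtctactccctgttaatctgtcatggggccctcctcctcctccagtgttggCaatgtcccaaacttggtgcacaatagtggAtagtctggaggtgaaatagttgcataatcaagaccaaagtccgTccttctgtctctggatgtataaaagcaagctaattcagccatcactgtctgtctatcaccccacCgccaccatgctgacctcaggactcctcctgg
Cyp2a4: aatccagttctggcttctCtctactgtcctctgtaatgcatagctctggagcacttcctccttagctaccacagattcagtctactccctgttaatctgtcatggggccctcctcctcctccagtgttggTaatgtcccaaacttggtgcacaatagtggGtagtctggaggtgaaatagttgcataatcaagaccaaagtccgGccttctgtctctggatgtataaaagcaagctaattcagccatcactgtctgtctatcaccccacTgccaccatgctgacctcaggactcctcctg
In Cyp2d9 (chr15:82452127-82452426, plus strand) and Cyp2d26 (chr15:82794196-82794495, minus strand), capitals mark TATAAA, the TATA box, read on either strand.
Cyp2d9: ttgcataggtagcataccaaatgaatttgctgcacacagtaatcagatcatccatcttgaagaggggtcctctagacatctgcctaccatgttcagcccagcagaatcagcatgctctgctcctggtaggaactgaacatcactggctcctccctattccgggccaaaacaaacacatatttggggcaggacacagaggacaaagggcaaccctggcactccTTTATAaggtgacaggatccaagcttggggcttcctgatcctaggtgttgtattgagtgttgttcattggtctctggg
Cyp2d26: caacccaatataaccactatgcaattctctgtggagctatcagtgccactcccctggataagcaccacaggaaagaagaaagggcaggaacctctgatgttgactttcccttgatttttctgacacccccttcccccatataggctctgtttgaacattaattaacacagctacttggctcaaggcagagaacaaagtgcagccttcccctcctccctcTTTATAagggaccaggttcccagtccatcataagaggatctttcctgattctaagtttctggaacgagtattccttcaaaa
In Cyp2b10 (chr7:25897408-25897707, plus strand) and Cyp2b9 (chr7:26173159-26173458, plus strand), capitals mark TTGCNNAA, a C/EBP site, on either strand.
Cyp2b10: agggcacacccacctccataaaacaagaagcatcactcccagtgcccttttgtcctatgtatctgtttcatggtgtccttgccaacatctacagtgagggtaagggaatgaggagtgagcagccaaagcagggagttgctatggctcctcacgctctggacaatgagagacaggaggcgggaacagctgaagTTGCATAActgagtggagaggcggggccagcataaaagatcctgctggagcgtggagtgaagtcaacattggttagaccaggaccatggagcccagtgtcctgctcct
Cyp2b9: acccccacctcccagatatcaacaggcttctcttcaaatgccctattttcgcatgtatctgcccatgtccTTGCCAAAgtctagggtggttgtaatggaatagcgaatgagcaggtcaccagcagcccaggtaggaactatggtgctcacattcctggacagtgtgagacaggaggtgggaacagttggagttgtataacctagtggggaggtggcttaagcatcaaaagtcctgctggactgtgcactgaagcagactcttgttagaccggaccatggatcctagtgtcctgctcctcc

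Promoters were at hand for 37 of the 44 members, and 6 motifs were searched on both strands. TATAAA was found in 16 of them (43.2%) and in 14.2% of all 27025 promoters of the same length. TTGCNNAA was found in 10 (27.0%, against 10.8% of all) and AGGTCA, a nuclear receptor half-site, in 15 (40.5%, against 16.0%). GCGTG, the core bound by AHR and ARNT, was found in 8 (21.6%, against 32.5%), CCAAT in 17 (45.9%, against 37.9%) and TTCNNNGAA, the palindrome bound by STAT factors, in 2 (5.41%, against 8.47%). The members with TTCNNNGAA were Cyp2j11 and Cyp2j12. Promoters of paralogs were counted separately though some are nearly the same: Cyp2b13 and Cyp2b9 were 99.3% identical and Cyp3a25 and Cyp3a59 95.7%. The TTGCNNAA matches include Cyp2a4, Cyp2a5 and all 5 Cyp2b members. Member promoters are therefore not independent, and their shares were not tested against those of all promoters. Matches of different motifs did not overlap in the 6 promoters shown. In the 300 bases shown, Cyp2a5 and Cyp2a4 shared the TATA box, the C/EBP site and the nuclear receptor half-site. The half-site lies after the RefSeq start, from base 30 in Cyp2a5 and base 31 in Cyp2a4, and the other 2 motifs lie before it.

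In kidney, Cyp2a5, Cyp2j13 and Cyp2b10 fell and Cyp2d26 rose in Ftsj1-deficient mice. These 4 were 11.1% of the 36 members with an adjusted p, beside 0.987% of all genes tested in that organ (0.339% rose and 0.648% fell). An unadjusted p under 0.05 was found for 8 of 42 members with a p, beside 3.99% of all genes. The median log2 fold change of the 36 was -0.04, against 0.00 for all genes tested.

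**Figure D2:**
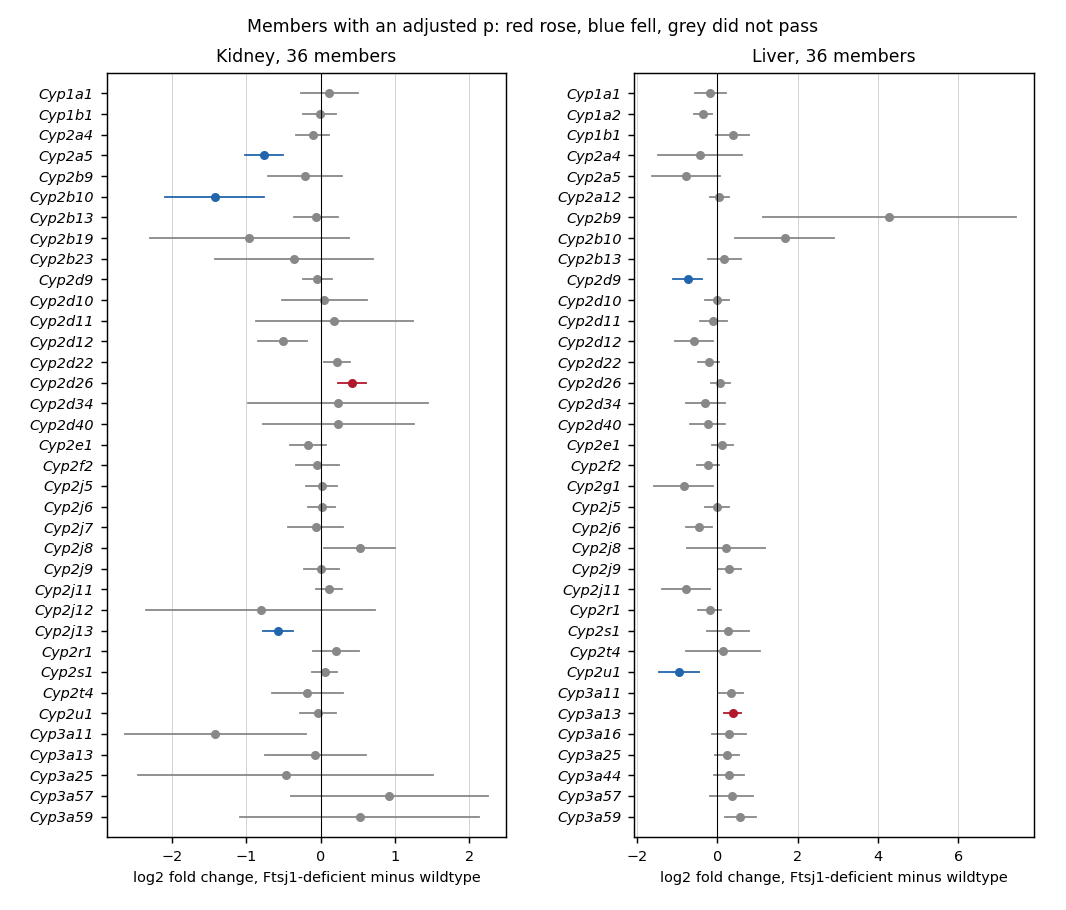
Log2 fold change of each member with an adjusted p in kidney (left) and liver (right), Ftsj1-deficient minus wildtype, from the authors' deposited tables; points are the estimates, bars their 95% intervals, red rose, blue fell and grey did not pass. Kidney holds 3 blue members and 1 red, liver 2 blue and 1 red, and all 7 Cyp3a points lie right of 0 in liver.

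Among the steroid and coumarin hydroxylases, Cyp2a5 fell by 0.76 ± 0.13 on the log2 scale in the authors' deposited table (adjusted p 3.94e-06), to 59.1% of wildtype. For Cyp2a4 the authors' deposited table gave -0.11 ± 0.11, with a 95% interval from -0.32 to 0.11, which did not pass. The difference between this pair was not tested. They share sequence: 40.8% of the 50-base windows of Cyp2a5 occur in another gene, Cyp2a4 above all, so reads could be split between them in a way that the sources do not state.

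Cyp2j13 fell by 0.58 ± 0.10 in the authors' deposited table (adjusted p 1.10e-05), to 67.0% of wildtype. It shares 0.139% of its windows with other genes. Of the other 7 Cyp2j members, none passed. The most abundant, Cyp2j5 and Cyp2j11, had 0.02 ± 0.11 and 0.12 ± 0.09 in the authors' deposited table. Cyp2j8 had 0.53 ± 0.24 there (unadjusted p 0.0295, adjusted p 0.690 in the authors' deposited table).

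Cyp2b10, the textbook CAR target and phenobarbital-inducible enzyme, fell by 1.42 ± 0.34 in the authors' deposited table (adjusted p 0.00523), to 37.3% of wildtype. It was low in kidney, with an estimated level of 179 in wildtype and 66.9 in Ftsj1-deficient mice on the scale of the deposited mean. All 5 Cyp2b members lay below 0, from -1.42 to -0.06, and Cyp2b10 was the only one that passed in the authors' deposited table. The pseudogene symbol Cyp2b27-ps, outside the members, also fell there, by 1.70 ± 0.39 (adjusted p 0.00244 in the authors' deposited table). Its recovered reads were 382, 41, 101, 17, 45 and 8 in libraries A to F. Divided by the size factors these are 79.3, 27.1, 99.3, 21.2, 70.0 and 29.9. Libraries A, C and E thus stood between 70.0 and 99.3 and B, D and F between 21.2 and 29.9, and the genotype of the letters is not known.

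Cyp2d26 rose by 0.42 ± 0.10 in the authors' deposited table (adjusted p 0.00355), to 1.34 times wildtype. Cyp2d12 had -0.51 ± 0.17 (adjusted p 0.173) and Cyp2d22 had 0.22 ± 0.09 (adjusted p 0.460) in the authors' deposited table. Cyp2d9 had -0.04 ± 0.10 in kidney in the authors' deposited table. Markers of the proximal tubule, the kidney cells in which many of these enzymes are made, moved both ways: of 14 tested, Gatm rose and Slc13a3 fell, and Slc22a12 is listed at 0. The summed level of those markers was 37317 ppm in wildtype and 34438 in Ftsj1-deficient kidney, estimated from means and fold changes. Markers of other cell types differed in kidney too. Neutrophil markers had 2 of 9 rising (S100a8 and S100a9), a median of 0.54 and a sum of 3.41 and 4.78 ppm in wildtype and Ftsj1-deficient mice. Adrenal cortex markers had 8 of 9 below 0 among those with a mean level of 10 or more, a median of -5.09 and a sum of 69.4 and 7.06 ppm. Exocrine pancreas markers at that level had 14 of 14 above 0 and a sum of 67.7 and 116 ppm. Only 2 genes of each of those last lists had an adjusted p, and 0 passed. The part of these markers in the 4 called members was not tested.

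Cyp3a members were low in kidney, with at most 0.0576 ppm per kb (Cyp3a13). Cyp3a11 had -1.41 ± 0.62 in the authors' deposited table (adjusted p 0.620). Its reads in libraries A to F were 246, 29, 124, 10, 14 and 13, and 44.3% of the size-corrected reads came from library C. The hepatocyte genes Ahsg (43, 11, 178, 2, 0 and 8 reads) and Cps1 (174, 22, 105, 12, 11 and 16) were also highest in library C, as were all 5 hepatocyte markers whose reads could be recovered. The liver member Cyp2a12 had 10, 2, 20, 1, 0 and 1 reads, with 70.1% in library C. Over the whole hepatocyte list in kidney, 7 of 18 tested lay above 0 and 11 below, the median was -0.07 and the sum was 581 and 585 ppm in wildtype and Ftsj1-deficient mice; Fga rose, Ttr and Serpina1a fell, and Hpd is listed at 0. Their part in the value of Cyp3a11 was not tested.

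In liver, Cyp2d9 and Cyp2u1 fell and Cyp3a13 rose in Ftsj1-deficient mice. These 3 were 8.33% of 36 members with an adjusted p, beside 2.29% of all genes tested in liver (0.887% rose and 1.41% fell). An unadjusted p under 0.05 was found for 13 of 42 members with a p, 6 above and 7 below 0, beside 6.63% of all genes. The median of the 36 was 0.02, against 0.01 for all genes.

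Cyp2d9, a testosterone hydroxylase known as male-specific in the liver of many mouse strains, fell by 0.74 ± 0.19 in the authors' deposited table (adjusted p 0.00634), to 59.8% of wildtype. Its level in liver was 333 ppm per kb. Cyp2d9 shares 29.0% of its windows with other genes, most with Cyp2d12, for which the authors' deposited table gave -0.57 ± 0.24 (adjusted p 0.269). Exons of Cyp2d9 also overlap those of Gm27622 and Gm46501 on the same strand in the GENCODE M21 annotation. How counting treated such reads is not given. The abundant relatives Cyp2d10 and Cyp2d26 had -0.01 ± 0.15 and 0.07 ± 0.12 in the authors' deposited table. Of 8 Cyp2d members, 7 lay below 0 and 1 passed.

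Cyp2u1 fell by 0.96 ± 0.26 in the authors' deposited table (adjusted p 0.0145), to 51.5% of wildtype. It overlaps the exons of 4930534D22Rik on the opposite strand in the GENCODE M21 annotation, and whether counting used the strand is not given, so reads of the pair cannot be told apart. Cyp3a13 rose by 0.38 ± 0.11 in the authors' deposited table (adjusted p 0.0421), to 1.30 times wildtype. This call was lost when all genes with a p were adjusted without the authors' filter (adjusted p 0.0728) and when the 5 organs were adjusted together (adjusted p 0.102).

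All 7 Cyp3a members lay above 0 in liver, from 0.23 to 0.57, and 1 passed. Cyp3a59 had the highest value, 0.57 ± 0.19 (adjusted p 0.0994), and Cyp3a11, the most abundant, had 0.35 ± 0.15 (adjusted p 0.317) in the authors' deposited table. Reads can be split among these genes: 28.0% of the windows of Cyp3a59 occur elsewhere, mostly in Cyp3a25. Cyp3a13 shares no window with another gene.

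The Cyp1 genes did not pass. Cyp1a2, which oxidises aryl amines and caffeine, had -0.35 ± 0.12 (adjusted p 0.0821) in the authors' deposited table. Cyp1a1 had -0.17 ± 0.20 and Cyp1b1 had 0.38 ± 0.21 in the authors' deposited table. Cyp2e1, the most abundant member per kb, had 0.13 ± 0.13, with a 95% interval from -0.13 to 0.38, in the authors' deposited table.

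Among members with an adjusted p, the largest values in liver belonged to Cyp2b9 and Cyp2b10, and neither passed. Cyp2b9, expressed mainly in female mouse liver, had 4.28 ± 1.61 in the authors' deposited table (unadjusted p 0.00781, adjusted p 0.168). Its level estimated from mean and fold change was 323 in wildtype and 6257 in Ftsj1-deficient liver on that scale. Cyp2b10 had 1.68 ± 0.63 (adjusted p 0.167) in the authors' deposited table, opposite in sign to kidney. Their standard errors were wide: genes of like level had a median SE of 0.14 beside Cyp2b9 and 0.15 beside Cyp2b10. Values per library were not recovered at these levels, so the number of mice behind them is unknown. Cyp2a5 was also widely spread, with -0.78 ± 0.43 (adjusted p 0.520) in the authors' deposited table.

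**Figure D3:**
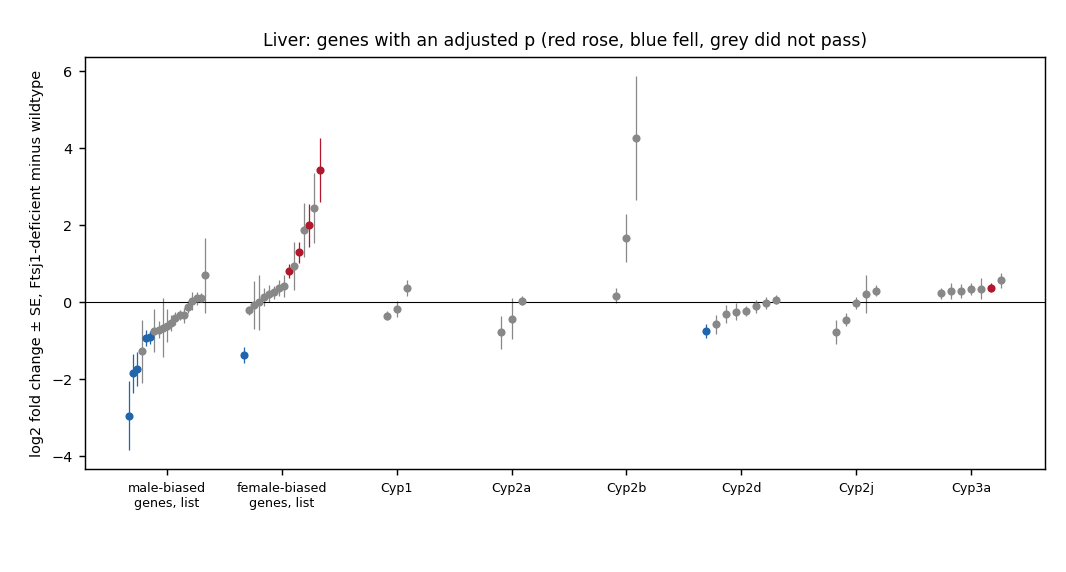
Liver log2 fold changes ± SE, Ftsj1-deficient minus wildtype, for male-biased and female-biased liver genes outside the 3 families and for members by family; each point is a gene with an adjusted p, red rose, blue fell, grey did not pass. Most male-biased genes lie below 0 and most female-biased genes above it, Cyp2b9 reaches 4.28, and Cyp3a points lie between 0.23 and 0.57.

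Because several members differ between the sexes, other genes with known sex bias in mouse liver were taken from lists chosen with earlier results of these data known. Of 19 male-biased genes tested in liver, 5 fell and 0 rose, with a median of -0.60. Those that fell were the major urinary protein genes Mup1 (-1.73 ± 0.44), Mup7 (-2.94 ± 0.90) and Mup21 (-0.92 ± 0.22), the adipokine gene Serpina12 (-1.84 ± 0.50) and Susd4 (-0.91 ± 0.17), all in the authors' deposited table. Of 16 female-biased genes tested, 4 rose and 1 fell, with a median of 0.40. Among those that rose, the transporter gene Slc22a26 rose by 3.45 ± 0.84, the flavin monooxygenase gene Fmo2 by 0.81 ± 0.17 and the peroxisomal transporter gene Abcd2 by 1.30 ± 0.27, while Ntrk2 fell by 1.37 ± 0.20, all in the authors' deposited table. The median of all genes tested in liver was 0.01. In kidney the male-biased list had 2 of 17 rising (Elovl3 and Cyp7b1) and Slco1a1 falling, with a median of -0.14, and the female-biased list had 3 of 17 rising (Slc22a26, Acot3 and Prom1) and Adam11 falling, with a median of 0.21. None of the 14 genes of growth hormone signalling tested in liver passed, Ghr, Jak2, Stat5b, Igf1, Socs2 and Cish included, and their median was 0.11.

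Genes that regulate or serve these enzymes did not pass in liver or kidney. The xenobiotic receptor list had 0 of 21 past the threshold in each of both organs, with medians of 0.05 in liver and 0.00 in kidney. In liver the authors' deposited table gave 0.22 ± 0.17 for Ahr, 0.22 ± 0.20 for Nr1i3 and 0.05 ± 0.11 for Nr1i2. The list of redox partners and heme synthesis had 0 of 18 in each organ, with a median of -0.13 in liver and -0.06 in kidney. Por, the shared electron donor, had 0.17 ± 0.19 in liver in the authors' deposited table.

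Other targets of the same receptors moved in kidney. Of 19 CAR and PXR targets outside Cyp2 and Cyp3, 3 rose and 0 fell: the aldehyde dehydrogenase gene Aldh1a7 rose by 0.67 ± 0.10, and the glutathione transferase genes Gsta1 and Gsta2 by 0.69 ± 0.14 and 0.48 ± 0.11 in the authors' deposited table. Cyp2b10 in the same kidneys fell. The list's median was 0.09 in kidney and 0.01 in liver, where 0 of 19 passed. Its genes Ugt1a1 and Ugt1a9 are listed at 0 in both organs and were not tested. Of the AHR targets outside Cyp1, Gsta1, which is on both lists, was the 1 of 9 that passed in kidney, and 0 of 8 passed in liver. The AHR targets Ugt1a6a and Ugt1a6b are listed at 0 in both organs.

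Later steps of detoxification held calls in both organs. Among glucuronosyltransferases, Ugt2b37 rose in liver (0.76 ± 0.19) and Ugt2a3 fell in kidney (-0.70 ± 0.18), each 1 of 11 tested, in the authors' deposited table, and the medians were 0.12 and -0.11. Of the 18 on that list, 7 are listed at 0 in both organs, all of them Ugt1a genes, Ugt1a1 included. These Ugt1a genes, like Hpd, Gsto1, Gsto2, Cyp2a22 and Cyp2d13, are listed at 0 in every organ. Why was not tested, and a listed 0 does not show that a gene is silent. Among 20 flavin monooxygenases, esterases and epoxide hydrolases in liver, with a median of -0.13, Fmo2 (also on the female-biased list) was among those that rose and the carboxylesterase genes Ces1e, Ces2c and Ces2e fell by 0.53 ± 0.16, 0.70 ± 0.18 and 0.64 ± 0.15 in the authors' deposited table. In kidney the median was -0.19 and 2 of 19 of that list fell, Ces1g by 1.35 ± 0.36 and Fmo5 by 0.43 ± 0.11 in the authors' deposited table. Gstp3 fell in liver, as 1 of 19 glutathione transferases with a median of -0.18, by 1.04 ± 0.20 in the authors' deposited table. Gsto1 and Gsto2 are listed at 0 there. Sulfotransferases had 0 of 12 in liver and 1 of 11 in kidney, Sult1b1, which fell by 0.37 ± 0.10 in the authors' deposited table.

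Zonation genes lay on both sides of 0 in liver, 6 above and 10 below for the central vein (median -0.10) and 8 on each side for the portal vein (median 0.02). Many members, Cyp2e1 and Cyp1a2 among them, are made around the central vein. Of 16 other central vein genes tested in liver, Tbx3 alone passed and rose by 0.75 ± 0.15 in the authors' deposited table. Of 16 portal vein genes, Ctsc rose by 0.76 ± 0.14 and Arg1 fell by 0.39 ± 0.12 in the authors' deposited table.

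Genes on marker lists of other cells moved in liver as well. All 9 exocrine pancreas markers tested there lay above 0, with 0 called and a median of 5.75, and their summed level was estimated at 85.1 ppm in wildtype and 3861 in Ftsj1-deficient liver. Hepatocyte markers in liver stood at 150024 and 147097 ppm in wildtype and Ftsj1-deficient mice, with 1 of 19 falling (Bhmt) and Hpd listed at 0. Neutrophil markers had 2 of 7 rising in liver (S100a8 and S100a9), with a sum of 6.80 and 8.49 ppm. Genes on the adipocyte list had 4 of 10 falling (Cidec, Cfd, Adrb3 and Thrsp), with a median of -0.87 and a sum of 1799 and 1798 ppm. Which liver cells made these RNAs was not tested, so the falls are not shown to be a change in fat cells. Thrsp held 227 ppm, Adrb3 5.85, Cfd 4.48 and Cidec 4.46, so most of that sum came from other genes of the list. In a bulk sample, fewer cells of a type and less RNA per cell cannot be told apart. The part of these markers in the liver values was not tested.

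Across organs, the log2 fold changes of Cyp2d9 and Cyp2b10 differed by more than their SE. Cochran's Q asks whether fold changes differ between organs by more than their SE. Adjusted over all genes with a mean level of 10 in at least 2 organs, it passed for these 2 of 36 members, with 1.22% of all genes passing. For Cyp2d9 (adjusted p 0.0293 by Cochran's Q) the authors' deposited tables gave -0.74 in liver, -0.04 in kidney and -3.37 in heart. For Cyp2b10 (adjusted p 0.0423 by Cochran's Q) they gave 1.68 in liver, -1.42 in kidney, -0.70 in heart, -0.47 in spleen and 0.37 in brain, all from the authors' deposited tables. The same 6 mice gave every organ, so the organs are not independent samples. Without heart, which falls under a minimum level of 50, Cyp2d9 no longer passed (adjusted p 0.0578 by Cochran's Q). With no minimum level Cyp2b10 did not pass (adjusted p 0.0680 by Cochran's Q). The other 5 members called in kidney or liver, Cyp2a5, Cyp2d26, Cyp2j13, Cyp2u1 and Cyp3a13, did not pass this test, so a difference between organs is not shown for them.

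**Figure D4:**
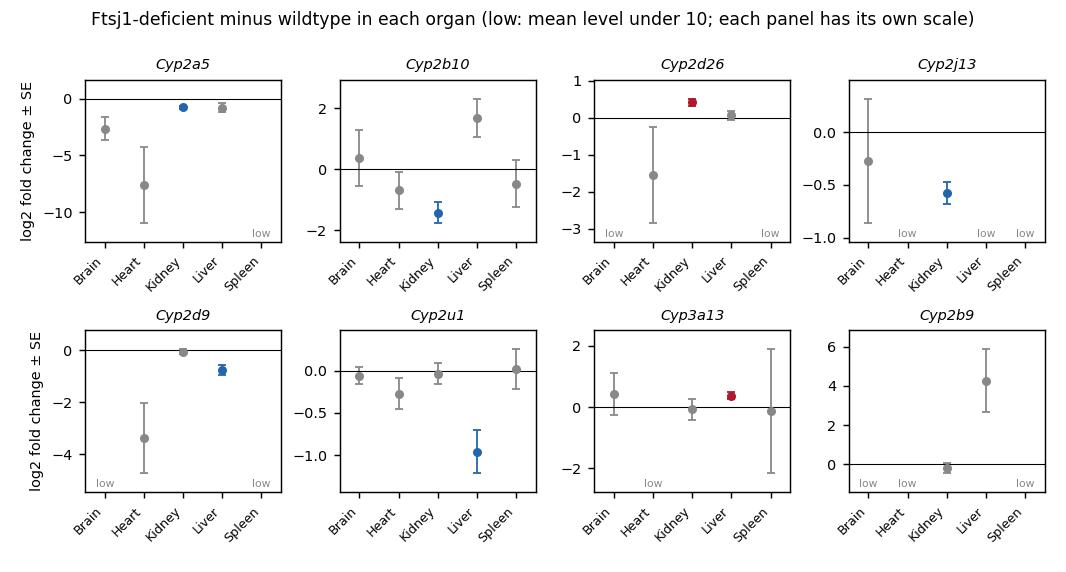
Log2 fold change ± SE, Ftsj1-deficient minus wildtype, in each organ for the 7 members that rose or fell in an organ and for Cyp2b9, from the authors' deposited tables; red rose, blue fell, grey did not pass, and low marks a mean level under 10. Cyp2b10 lies at -1.42 in kidney and at 1.68 in liver, and Cyp2u1 lies near 0 outside liver.

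In heart, no member passed, beside 0.541% of all genes tested (0.21% rose and 0.331% fell). DESeq2, the authors' tool, gave 24 members an adjusted p. An unadjusted p under 0.05 was found for 3 of 41 members with a p, beside 5.71% of all genes, and all 3 lay below 0: the naphthalene-activating enzyme Cyp2f2 (-4.10 ± 1.41), Cyp2e1 (-1.96 ± 0.84) and Cyp2d9 (-3.37 ± 1.35) in the authors' deposited table. Of the 24, 18 lay below 0 and the median was -0.77, against -0.01 for all genes tested.

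Recovered reads were uneven among the heart libraries. The 6 libraries A to F held 419, 98, 8, 0, 4 and 0 reads of Cyp2d9, and libraries A and B held 91.4% of them after division by the size factors. Cyp2d10 had 169, 44, 0, 0, 4 and 0 reads and Cyp1a2 had 110, 48, 0, 0, 0 and 0. For Cyp3a25 the counts were 175, 76, 33, 1, 1 and 0. These 4 genes, all far higher in liver, had most of their size-corrected reads in the same pair of libraries, from 74.7% for Cyp3a25 to 100% for Cyp1a2.

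Hepatocyte markers were uneven in the same way. Bhmt had 693, 162, 5, 2, 2 and 0 reads, Slco1b2 had 248, 158, 1, 2, 1 and 1, and Serpina1a had 753, 217, 22, 0, 0 and 0. All 19 hepatocyte markers tested lay below 0, with a median of -2.84, and 2 fell, Bhmt and Slco1b2 (-4.89 ± 1.18 and -5.31 ± 1.33 in the authors' deposited table). Their summed level was estimated at 104 ppm in wildtype and 60.4 in Ftsj1-deficient heart. Of 7 markers whose reads were recovered, 5 were highest in library B and 2 in library A. Other members were spread more evenly: Cyp1a1 had 57, 25, 21, 18, 20 and 18 reads, and Cyp2t4 had 307, 48, 34, 29, 18 and 4. Adipocyte markers lay below 0 in 12 of 13 cases, with a median of -1.89 and sums of 796 and 756 ppm, and Lep fell. Neutrophil markers had 4 of 7 rising (S100a8, S100a9, Cxcr2 and Csf3r), a median of 1.58 and a sum of 13.9 and 17.6 ppm in wildtype and Ftsj1-deficient heart. Proximal tubule markers lay below 0 in 13 of 13 cases, with a median of -0.47, sums of 438 and 388 ppm and 0 called. Markers of neurons and glia lay below 0 in 9 of 9, with a median of -0.67, sums of 56.1 and 41.6 ppm and 0 called. The part of these cell types in the heart values was not tested.

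Cyp2a5 in heart followed another pattern. Its reads were 1681, 8, 1, 0, 0 and 0, so that 97.5% of the size-corrected reads came from library A, and the authors' table gives it no p. The lung surfactant genes Sftpa1 (824, 0, 0, 0, 0 and 0 reads) and Sftpd (316, 2, 0, 1, 0 and 0) were also highest there. Cyp2a4, which shares sequence with Cyp2a5, had 102, 2, 1, 1, 2 and 0 reads. All 6 lung markers whose reads were recovered were highest in library A. The whole lung list of 12 had 4 tested in heart, 1 above 0 and 3 below, with a median of -0.16 and 0 called. All 12 had a mean level of 10 or more, with 11 below 0 and a median of -2.34. Their summed level was estimated at 172 ppm in wildtype and 153 in Ftsj1-deficient heart. The part of lung RNA in the value of Cyp2a5 and of Cyp2f2, a club cell enzyme, was not tested. Cyp2f2 also held 645 ppm in liver, and the part of hepatocyte RNA in its heart value was not tested either. Its heart reads were not sought at that level, so the libraries that held them are not known. The club cell gene Scgb1a1 had -9.80 ± 3.84 in heart in the authors' deposited table.

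**Figure D5:**
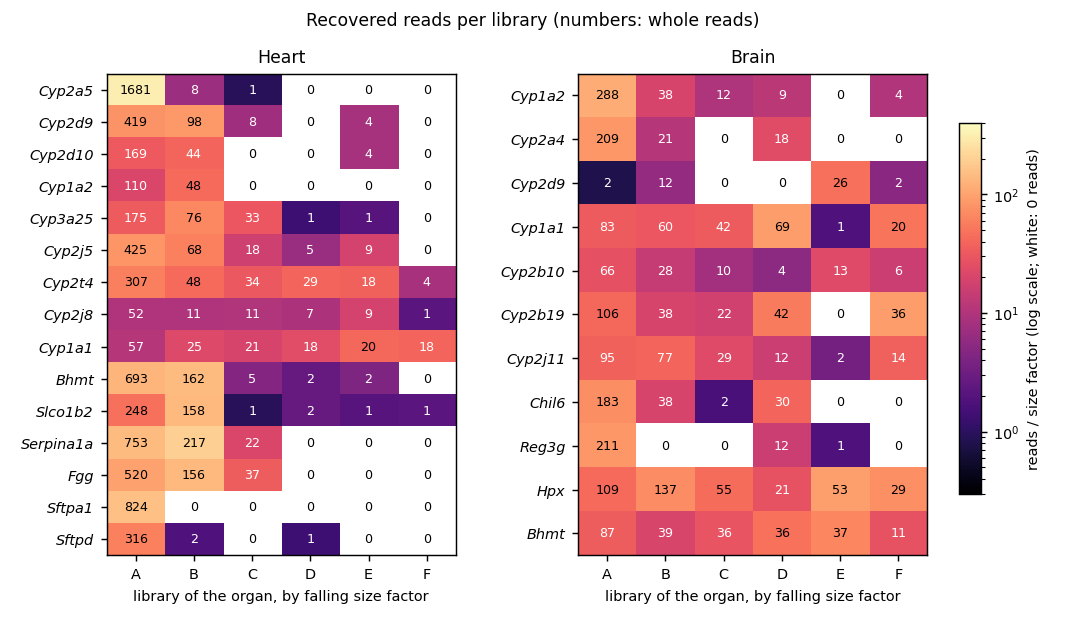
Whole reads recovered for members and marker genes in the 6 heart (left) and 6 brain (right) libraries, named A to F by falling size factor within each organ; numbers are reads and colors reads divided by the size factor on a log scale, with white for 0. In heart, Cyp2d9, Cyp2d10 and Cyp1a2 share libraries A and B with Bhmt and Serpina1a, and Cyp2a5 shares library A with Sftpa1; in brain, Cyp2a4 and Cyp1a2 share library A with Chil6 and Reg3g.

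In brain, no member passed, beside 0.0607% of all genes tested (0.014% rose and 0.0467% fell), and 4 of 42 with a p had an unadjusted p under 0.05, beside 2.34% of all genes. Cyp2a5 had the largest of the values with an adjusted p, -2.65 ± 1.01 (adjusted p 1.00 in the authors' deposited table, unadjusted p 0.00898). Cyp2d22, a leading brain member, had 0.19 ± 0.08, and Cyp2s1 had 0.28 ± 0.14 in the authors' deposited table. Cyp2j9 and Cyp2j6, the other abundant ones, had 0.04 ± 0.07 and 0.00 ± 0.08 there, with 95% intervals of -0.10 to 0.18 and -0.16 to 0.17, in the authors' deposited table.

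Members known from nasal tissue were uneven among the brain libraries. Cyp2a4 had 209, 21, 0, 18, 0 and 0 reads in libraries A to F, and Cyp1a2 had 288, 38, 12, 9, 0 and 4. The nasal and airway genes Chil6 (183, 38, 2, 30, 0 and 0 reads) and Reg3g (211, 0, 0, 12, 1 and 0) were highest in library A too. The olfactory enzyme Cyp2g1 had -2.05 ± 1.30 and Cyp2a5 had the value above, beside -5.27 ± 1.75 for Bpifa1 and -1.44 ± 0.34 for Stoml3 in the authors' deposited table. No p is given there for Bpifa1. Of the 15 genes of the nasal list, which was chosen after their values were seen, 9 were tested in brain. All 9 lay below 0, with a median of -0.65, and 1 fell, Stoml3. Omp and Scgb1c1 of that list are listed at 0. The part of the nasal genes in the brain values was not tested. Cyp2d9 in brain had 2, 12, 0, 0, 26 and 2 reads, mostly in library E, and no adjusted p.

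In spleen, no member passed, beside 0.0741% of all genes tested (0.0479% rose and 0.0261% fell), and 4 of 37 with a p had an unadjusted p under 0.05, beside 4.70% of all genes. Cyp2e1 had 1.22 ± 0.47 (adjusted p 0.527), Cyp2r1 -0.58 ± 0.29 (adjusted p 0.781) and Cyp2t4 -0.56 ± 0.27 (adjusted p 0.755) in the authors' deposited table. Reads of Cyp2t4 may include some of Egln2, whose exons it overlaps on the opposite strand. Cyp1b1, the leading member, had 0.10 ± 0.22, with a 95% interval from -0.33 to 0.52, in the authors' deposited table. Cyp2j8 had 6, 4, 3, 7, 36 and 2 reads in libraries A to F, so that 70.5% of its size-corrected reads came from library E. Cyp3a13 had 76, 54, 1, 0, 24 and 55 reads, near 0 in libraries C and D and high in the others. Exocrine pancreas markers stood at 46881 and 60178 ppm in wildtype and Ftsj1-deficient spleen, with all 14 tested above 0 and 0 called. Neutrophil markers stood at 239 and 556 ppm, with all 11 tested above 0, a median of 1.03 and 0 called. Adipocyte markers stood at 70.6 and 117 ppm, with 8 of 12 tested above 0, a median of 0.20 and 0 called. The part of these markers in the spleen values was not tested.

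Shared sequence limits the assignment of reads to single members. Of 43 members with a transcript in GENCODE M21, 35 share at least 1 window of 50 bases with another gene, and 12 share more than 20% of their windows. Highest were Cyp2a5 (40.8%), Cyp2d10 (40.5%), Cyp2a4 (38.0%) and Cyp2d11 (37.2%). Of the called members, Cyp2d26 shares 10.5%, Cyp2b10 9.69% and Cyp2u1 3.14%. Cyp2b13, which reached a mean level of 10 in all 5 organs, shares 27.3%, most with Gm45225.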

How the data were processed

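RNA of 5 organs was profiled in 6 mice. Per the labels' protocols, organs were frozen, milled to powder and extracted by a phenol method before stranded library preparation. The submitters' processing notes name GRCm39, featureCounts, Subread 2.0.3 and DESeq2; the aligner, the annotation and the strand setting are not stated in those notes. Per the file headers, the authors deposited DESeq2 results. The deposited mean signal is the mean of normalised counts over 6 libraries. Log2 fold changes and their SE are on the deposited log2 scale, the authors' Wald score is their ratio, and p-values and adjusted p-values (Benjamini-Hochberg) were deposited by the authors. The sign was read from Ftsj1. The tables of non-coding RNA classes were not used, and the values of 1 gene of the lists are not reported here. The entry without a name held at most 0.000198% of an organ's summed level and was left out.

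The members and gene lists were chosen with earlier results of these data known, and the nasal list after its values were seen. Genes were named by rule: members past the threshold, the 3 highest levels and 3 smallest p per organ, members past Cochran's Q, members widely detected, and called members of lists; Cyp2b27-ps, other members beside these and the genes whose reads are given were added after their values were seen. No count test was fitted, since the tables used hold no value per library. Levels per genotype were estimated from mean and fold change. Intervals are 1.96 SE. Differences between organs were tested with Cochran's Q (scipy 1.17.1), which was tested on simulated data. The simulation drew the organs as independent and changed only genes with a mean level of at least 100 in every organ. It therefore does not cover organs from the same mice or members that are low in an organ. Whole reads were recovered by finding the reads of 6 libraries whose mean after division by the size factors gives the deposited mean, a step also tested on simulated data; size factors came from levels that at least 15 genes share. Of 115 member values above 0 and at or under a level of 100, 108 had exactly 1 solution. Of 200 real genes, 200 had 1 solution and 0 had one when the value was moved by a millionth. The p-values measure the spread between 3 mice a group. Exon lengths, overlaps and windows are from GENCODE M21 (GRCm38), and promoters from RefSeq (GRCm38.p6) aligned with Biopython 1.88.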

Additional observations from a re-analysis of the deposited data

Results flagged for a closer look

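The log2 fold changes of Cyp2d9 and Cyp2b10 differed between organs, with adjusted p of 0.0293 and 0.0423 by Cochran's Q; Cyp2d9 did not pass with a minimum level of 50 (adjusted p 0.0578 by Cochran's Q) and Cyp2b10 did not with no minimum (adjusted p 0.0680 by Cochran's Q). Within single organs, Cyp2d9 passed in liver alone and Cyp2b10 in kidney alone. In the authors' deposited tables Cyp2d9 had -0.74 ± 0.19 in liver, -0.04 ± 0.10 in kidney and -3.37 ± 1.35 in heart, where its reads lay mostly in libraries A and B. Cyp2b10 had 1.68 ± 0.63 in liver and -1.42 ± 0.34 in kidney in the authors' deposited tables. Cyp2b27-ps, a pseudogene symbol left out of the members, lies outside the genes compared and fell in kidney with a log2 fold change of -1.70 ± 0.39 in the authors' deposited table.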

How the results depend on the processing

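The 4 kidney calls passed at thresholds of 0.1 and 0.01, without the authors' filter, over genes at a level of at least 10, over the 5 organs together and after centring. With at least 2-fold required, 1 kidney call (Cyp2b10) and 0 of the liver calls were left. In liver, 5 members passed at 0.1 (with Cyp1a2 and Cyp3a59 added) and 1 at 0.01 (Cyp2d9). For differences between organs, 1 member passed with a mean level of 50 or more (Cyp2b10) and 1 with no minimum (Cyp2d9). Apart from centring, which moved log2 fold changes by at most 0.02, the alternatives reuse the deposited fold changes, so they say nothing about direction. Brain, heart and spleen had no called member under any alternative, with 4, 3 and 4 at an unadjusted p under 0.05. No paired analysis was possible because the tables hold no value per library; leaving out a mouse could not be run for the same reason. Recovered reads carry no genotype, so they give no test, and they were not sought above a level of 100.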
